A study of Drosophila melanogaster with 12 samples.

Results

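Gene expression in fly heads in the middle and late part of the day was set against expression late at night. The comparison used 8 of the 12 arrays of the series, 4 by day and 4 late at night, and 13966 probe sets. These were all of the 14010 rows of the value table except 44 Affymetrix control probe sets (AFFX). The day group held hours 6 and 10 and the late night group hours 18 and 22, counted from lights-on, so that the groups lie on opposite sides of the daily cycle. Hours 2 and 14 were not part of either group.

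All flies were Drosophila melanogaster of the y w genotype, which carries mutations in the yellow and white genes for body and eye pigment. They were held for 3 days in 12 hours of light and 12 hours of darkness before sampling began. In constant darkness (DD), the second sampled day, hours are circadian times from the subjective lights-on, and both the day and the late night flies were in the dark. In the light/dark cycle (LD), the first sampled day, the day flies had the lights on and the late night flies had them off. Each array measured total RNA from 1 pool of about 100 to 200 heads, and each time point of each regime had a single array. More than 1 extraction reagent is named for the RNA of this series. It is unknown which pool was prepared with which reagent, so a reagent effect could not be tested. The sex and age of the flies are not given in the sources used here. Nothing in the labels says that the pools came from separate cultures, so the p-values reflect only how far these arrays scatter, which may in part be technical. The 4 arrays of a group are also different hours and regimes, so their spread includes any change between hour 6 and hour 10 or between hour 18 and hour 22.

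The molecular clock of the fly is a loop of transcription in which CLOCK and CYCLE drive period and timeless, whose proteins later enter the nucleus and repress them. A second loop through vrille and Pdp1 sets the rhythm of Clock and of cryptochrome, the blue light photoreceptor of clock neurons. Fly heads hold compound eyes, brain, fat body, muscle and sensory organs, so that a head-wide rhythm can come from many peripheral clocks, from feeding and activity, or from light itself. In whole heads, fewer cells of a type and less RNA per cell cannot be told apart.

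The values are log2 signals, so a difference of 1 is a doubling. The 8 arrays correlated with each other at 0.975 to 0.995 (Pearson, across probe sets), and their medians lay between 5.37 and 5.40. Of the 8 photoreceptor markers 3 were measured. Over the 8 arrays, Arr2, which encodes the main arrestin of photoreceptors, averaged 12.31, chp, a photoreceptor surface protein, 9.26, and trp, a light-activated channel, 9.70. The glial markers Gs2 and repo averaged 10.40 and 5.46, and the neuronal markers nSyb and elav 6.51 and 4.63. The yolk protein gene Yp1, made in female fat body, averaged 13.68. Levels of different probe sets cannot be set against each other on this scale.

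The arrays differed in how well the far ends of transcripts were labelled. Control probe sets for actin, Gapdh and eIF-4a target the 5′ and the 3′ end of the same transcript, and the 5′ minus 3′ difference becomes more negative as labelled RNA gets shorter. The mean of the 3 controls was -1.64 and -1.55 at hours 6 and 10 of DD and -1.53 and -1.76 at the same hours of LD, against -2.51 and -2.45 at hours 18 and 22 of DD and -1.74 and -1.63 at those hours of LD. The day arrays averaged -1.62 ± 0.104 and the late night arrays -2.08 ± 0.463 (SD, n = 4 each), which did not separate the groups in a two-sided exact permutation test over the 70 splits (p = 0.143, smallest possible 0.0286). In LD the groups overlapped, and in DD both late night arrays lay far below every day array. For many genes below, the difference within DD and the difference within LD, where this signal overlapped, are therefore given as well. Whether the extraction reagent had a part in this signal was not tested.

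**Figure D1:**
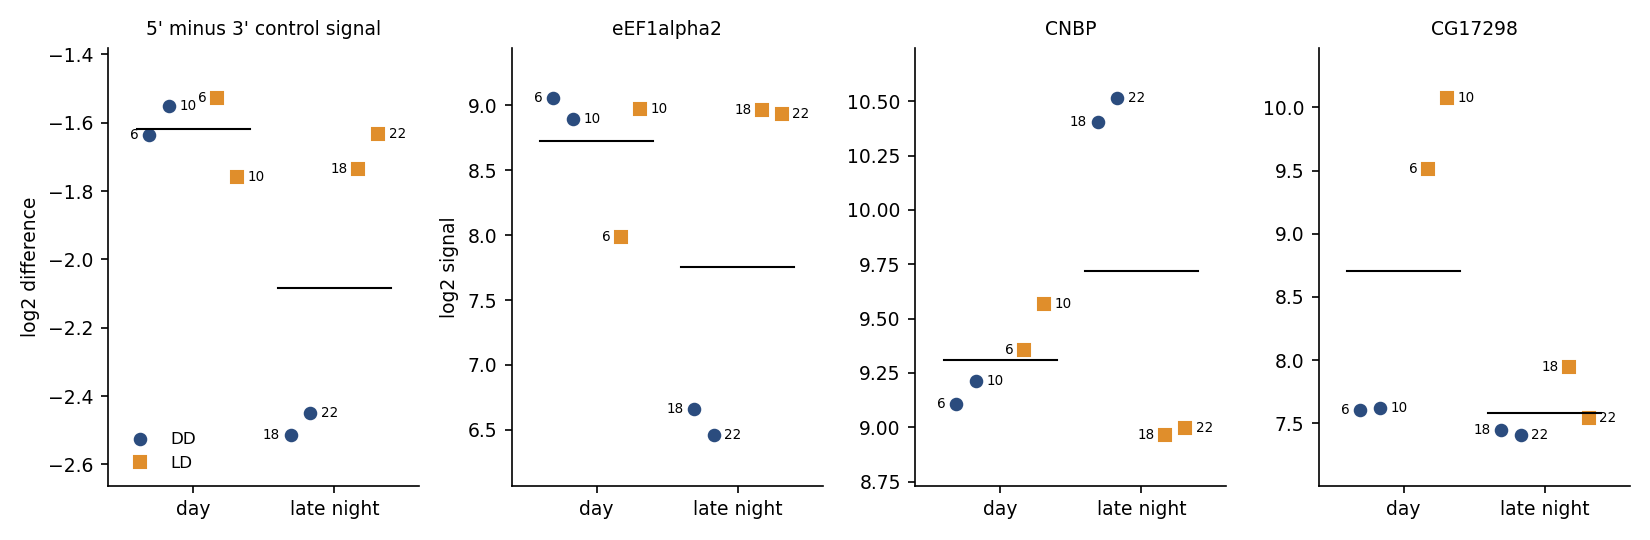
Each panel plots 8 arrays, with day left of late night, circles for DD, squares for LD, the hour beside each point and a line at the group mean. The left panel is the 5′ minus 3′ difference of control probe sets on a log2 scale, and the other panels are log2 signals of eEF1alpha2, CNBP and CG17298. The late night arrays of DD at -2.51 and -2.45 stand apart in the control signal, and eEF1alpha2 and CNBP are extreme in the same arrays, while CG17298 is highest in the LD day arrays.

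No probe set passed an adjusted p of 0.05 between day and late night in limma's test with regime as a term (0 of 13966, 0%). The differences nearest to passing were upward. At an unadjusted p under 0.05, 820 probe sets were higher by day (5.87%) and 460 were lower (3.29%). Counted by gene, with the brightest probe set standing for each of 10843 genes, 684 were higher (6.31%) and 336 were lower (3.1%). The 4 day arrays all lay above the 4 late night arrays for 255 genes (2.35%) and all below them for 230 genes (2.12%). The median difference over all genes was -0.01. On data simulated at this size, the test recovered 55% of probe sets changed by 0.5 and 95% of those changed by 1. The simulated noise was independent between arrays and probe sets, and each change was equal in all 4 day arrays. Shifts shared by many probe sets, or a change in 1 regime only, were not simulated, so these shares need not hold for the measured data. Leaving out hour 10 of LD gave 48 passing probe sets (43 higher, 5 lower), and leaving out any other array gave 0.

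The smallest adjusted p, 0.0643, belonged to Rpt4 and to a probe set with no gene name in the annotation used. Rpt4 encodes an ATPase of the base of the 19S regulatory particle, the part of the proteasome that unfolds ubiquitin-tagged proteins and feeds them into the proteolytic core. At hours 6 and 10 Rpt4 measured 6.83 and 6.90 in DD and 7.22 and 7.22 in LD, against 6.32 and 6.33 in DD and 6.62 and 6.62 in LD at hours 18 and 22. Every day array lay above every late night array, and within each regime the 2 arrays of a group were nearly equal. The difference was 0.57 ± 0.06 (SE), a fold of 1.49, with 0.54 in DD and 0.60 in LD. The probe set without a name measured 7.26 and 7.07 in DD and 7.40 and 7.25 in LD by day, against 6.53 and 6.35 in DD and 6.64 and 6.59 in LD late at night, a difference of 0.72.

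Proteasome genes as a whole lay higher in the day group than in the late night group. Of the 32 genes in the list 26 were measured, all 26 had a positive difference, and none of them passed the adjusted threshold. At an unadjusted p under 0.05, 17 were higher and 0 lower, beside 6.31% of all genes, and for 16 of the 26 the 4 day arrays lay wholly above the late night arrays, beside 2.35% of all genes. The median difference of the list was 0.32 (0.02 to 0.80), with 0.39 in DD and 0.30 in LD, against -0.01 for all genes. Positive differences held for 24 of 26 in DD and 25 of 26 in LD. With the control signal added to the fit, the median was 0.30, and 12 of the 26 were higher and 0 lower at an unadjusted p under 0.05. Of all 10843 genes 273 were higher and 289 lower in that fit. Averaged over the 26 genes, the log2 signal was 7.40 and 7.56 at hours 6 and 10 of DD and 7.58 and 7.56 at those hours of LD, against 7.14 and 7.02 at hours 18 and 22 of DD and 7.31 and 7.21 at those hours of LD. Hours 2 and 14 were in neither group. The mean was 7.39 in DD and 7.18 in LD at hour 2, and 7.20 in DD and 7.64 in LD at hour 14. Hour 2 of LD, with the lights on, thus lay below both late night arrays of LD. Hour 14 of LD, with the lights off, was the highest of the 12 arrays.

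The 4 measured ATPases of the base (Rpt2, Rpt3, Rpt4 and Rpt5) had a median difference of 0.63, and the groups did not overlap for any of them. They ranged from 0.21 ± 0.07 for Rpt5 to 0.80 for Rpt2, and differences between the parts of the proteasome were not tested. Rpt3 measured 6.59 and 6.73 in DD and 6.85 and 7.19 in LD by day, against 5.96 and 5.86 in DD and 6.44 and 6.35 in LD late at night, a difference of 0.68 ± 0.09 with an adjusted p of 0.206 in limma. Rpt2 differed by 0.80 ± 0.16, with 1.20 in DD and 0.40 in LD. The non-ATPase subunits of the regulatory particle had a median of 0.31 over 10 genes, of which 6 were at an unadjusted p under 0.05. Among them Rpn11, the deubiquitinase that removes the ubiquitin chain before degradation, differed by 0.49 ± 0.07, and Rpn12, another lid subunit, by 0.46 ± 0.07. Rpn11 measured 7.30 and 7.39 in DD and 7.70 and 7.85 in LD by day, against 6.98 and 6.83 in DD and 7.22 and 7.26 in LD late at night.

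In the core particle, the alpha subunits that form the outer rings had a median difference of 0.35 over 6 genes, and the beta subunits, which carry the proteolytic sites, 0.26 over 6 genes. Prosbeta5, the chymotrypsin-like protease subunit, differed by 0.46 ± 0.13, with 0.46 in DD and 0.45 in LD. Prosalpha4 differed by 0.45 ± 0.10 and Prosbeta6 by 0.36 ± 0.08. The subunits with the smallest differences were Rpn6 at 0.02 ± 0.13, Rpn2 at 0.11 ± 0.07 and Prosalpha6 at 0.14 ± 0.11. Rpt4, Rpt3, Rpn12 and Rpn11 have probe sets numbered in a row on this array, and the other 22 genes without these 4 had a median of 0.25, with 13 at an unadjusted p under 0.05 and 12 without overlap.

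**Figure D2:**
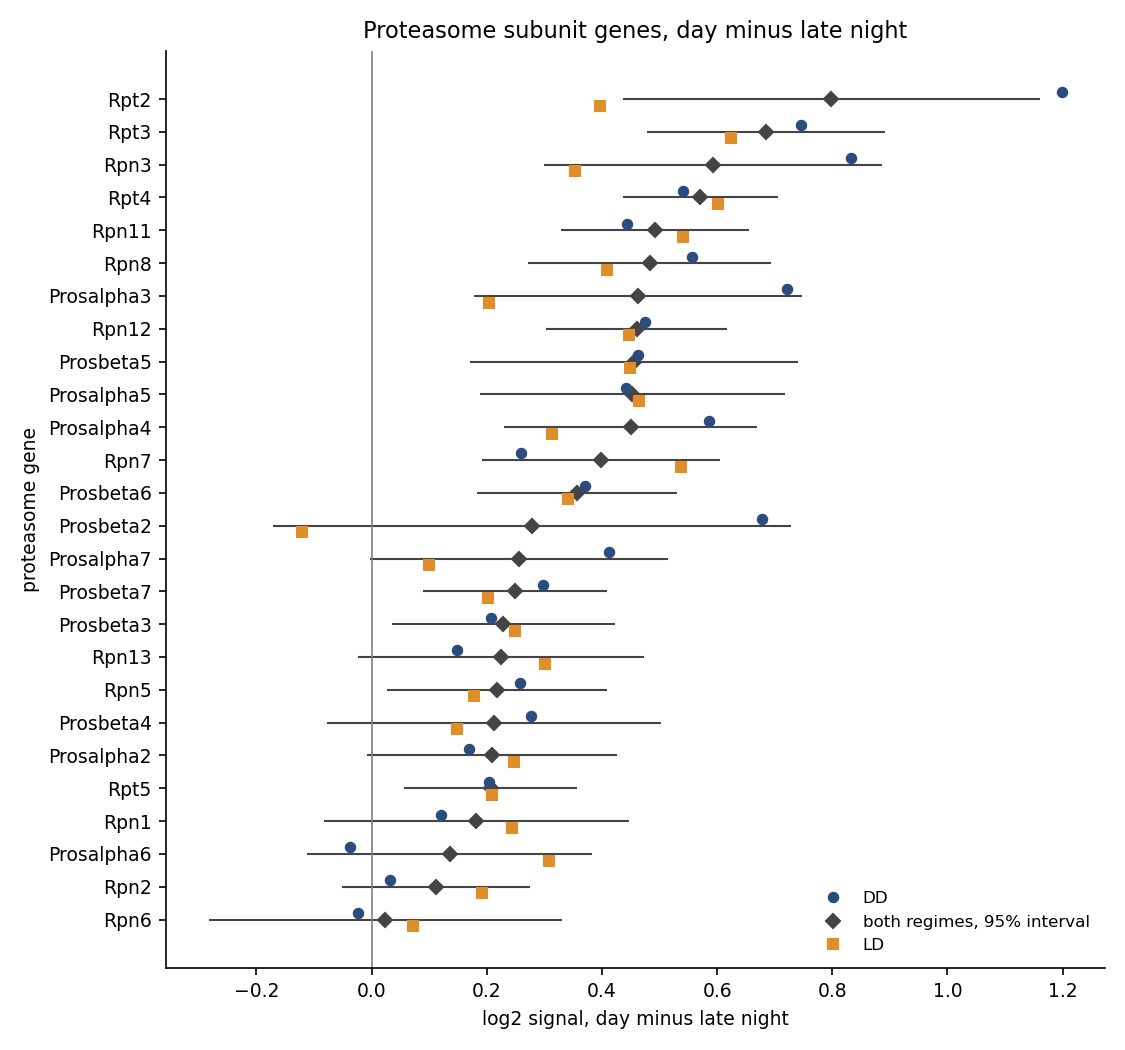
The log2 difference of day minus late night is on the horizontal axis for each of 26 proteasome genes, with diamonds and 95% intervals for both regimes together, circles for DD and squares for LD. All 26 diamonds lie above 0, and 25 of the LD squares and 24 of the DD circles do.

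Among the other genes nearest to the threshold upward, cry had the smallest p of the clock genes. Cryptochrome measured 8.53 and 8.50 in DD and 8.19 and 8.34 in LD by day, against 7.64 and 7.59 in DD and 7.60 and 7.94 in LD late at night. The groups did not overlap, and the difference was 0.70 ± 0.11, a fold of 1.62, with an adjusted p of 0.266 in limma. It was 0.90 in DD and 0.49 in LD.

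The other core clock genes had smaller differences between these hours. Of 15 measured core clock genes, 3 were higher (cry, cyc and slmb) and 1 lower (per) at an unadjusted p under 0.05. The shares of all genes were 6.31% and 3.1%, and the median difference of these clock genes was -0.07. The gene for period measured 5.76 and 5.86 in DD and 5.63 and 6.31 in LD by day, against 6.27 and 6.28 in DD and 6.27 and 6.06 in LD late at night. Its groups overlapped through hour 10 of LD, and the difference was -0.33 ± 0.14 (adjusted p = 0.54 in limma). By its brightest probe set timeless measured 5.56 and 6.34 in DD and 5.72 and 6.88 in LD by day, against 6.58 and 5.65 in DD and 7.62 and 6.39 in LD late at night, a difference of -0.43 ± 0.37 with overlapping groups. Its 2 dimmer probe sets differed by -0.08 and -0.07. In both regimes timeless was higher at hour 10 than at hour 6 and higher at hour 18 than at hour 22, and at hour 14 it measured 7.25 in DD and 7.80 in LD.

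The gene vri, which encodes the repressor of the second loop, measured 6.87 and 7.68 in DD and 6.97 and 7.69 in LD by day, against 7.45 and 6.96 in DD and 7.70 and 6.67 in LD late at night, a difference of 0.11 ± 0.28. Its values at hour 14, 8.37 in DD and 8.16 in LD, were above all 8. Pdp1, the activator of that loop, differed by -0.19 ± 0.10. Clk, the activator of per and tim, differed by -0.07 ± 0.22, with overlapping groups. Cyc, its partner, measured 6.42 and 6.47 in DD and 6.41 and 6.44 in LD by day, against 6.13 and 6.38 in DD and 6.30 and 6.23 in LD late at night, so the groups did not overlap although the difference was only 0.17 ± 0.07. The F-box gene slmb, whose product targets PER for degradation, differed by 0.37 ± 0.15, but by 0.78 in DD and -0.03 in LD. The kinase gene dco (doubletime) differed by -0.18 ± 0.16, with -0.56 in DD and 0.20 in LD. The neuropeptide gene Pdf differed by -0.14 ± 0.09 and its receptor Pdfr by -0.05 ± 0.10. The transcription repressor cwo differed by 0.01 ± 0.07 on its brighter and by -0.37 ± 0.19 on its dimmer probe set. The F-box gene jet, which acts in light resetting, differed by 0.06 ± 0.09. The phosphatase subunit genes tws and wdb differed by -0.09 ± 0.12 and -0.13 ± 0.11, and a dimmer probe set of tws by 0.12 ± 0.13. For slmb, dco and wdb the 2 late night arrays of DD, those of the low 5′ minus 3′ signal, were the 2 extreme values, and the part of that signal was not tested.

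Genes that other work has named as rhythmic in fly heads were also examined. Of 19 measured, 5 were higher and 2 lower at an unadjusted p under 0.05, beside 6.31% and 3.1% of all genes. Their median difference was 0.15, and the list is not independent of earlier results of these data. That median was 0.06 with the control signal added to the fit, 0.02 with the probe sets of each gene averaged, and 0.02 to 0.24 without 1 array, lowest without hour 10 of DD and highest without hour 6 of LD. Cpr72Ec, a cuticle protein gene expressed in the eye, measured 11.003 and 10.68 in DD and 10.37 and 9.55 in LD by day, against 9.85 and 9.80 in DD and 9.21 and 10.01 in LD late at night. The groups overlapped and the difference was 0.68 ± 0.24. The glutamate-cysteine ligase modifier Gclm, which limits glutathione synthesis, differed by 0.36 ± 0.13, with 0.36 in DD and 0.35 in LD. Slob, which binds the Slowpoke potassium channel, and Usp8, a deubiquitinase, differed by 0.02 ± 0.26 and 0.27 ± 0.36.

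Cyp4d21, a cytochrome P450 also known as sxe1, had the largest downward difference of the 10843 genes. It measured 6.53 and 6.62 in DD and 5.76 and 5.61 in LD by day, against 7.76 and 6.96 in DD and 7.67 and 7.89 in LD late at night. The groups did not overlap, and the difference was -1.44 ± 0.27, which is 2.72-fold higher late at night (adjusted p = 0.266 in limma). It was -0.79 in DD and -2.09 in LD, and the test of that regime difference did not pass (1.31 ± 0.33, adjusted p = 0.167). Without the late night arrays of DD, a setting chosen after seeing the data, Cyp4d21 was the only probe set to pass (-2.09, adjusted p = 0.0113). That difference is the one of LD alone, since the DD day arrays add only to the estimate of scatter. In the fit of LD alone Cyp4d21 did not pass (adjusted p = 0.173 in limma). Cyp4d21 is expressed more in male than in female heads, and other sex-biased genes had smaller differences. Of those, sxe2, also male-biased, differed by 0.29 and fit, a female-biased fat body gene, by -0.82 (-0.55 in DD, -1.10 in LD), while the female yolk protein genes Yp1, Yp2 and Yp3 differed by 0.10, 0.03 and -0.08. The sexes in the pools are not given, and their part in the result was not tested.

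**Figure D3:**
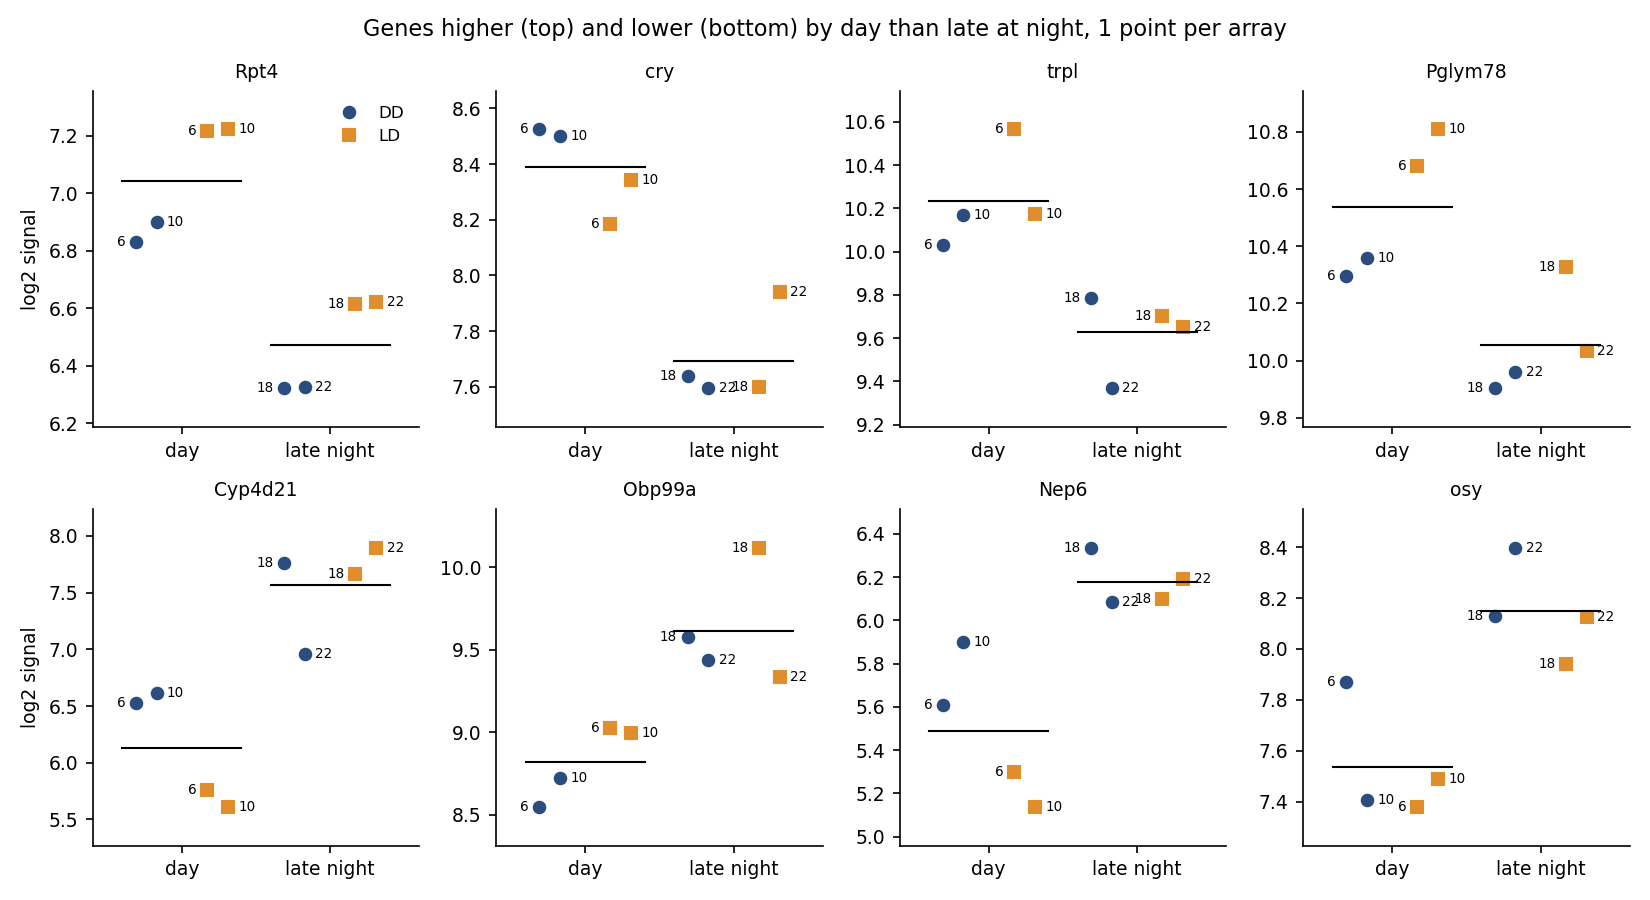
Log2 signal of 8 genes in each of the 8 arrays, day left of late night, circles for DD, squares for LD, the hour beside each point and a line at the group mean. In the upper row Rpt4, cry and trpl have all 4 day arrays above all late night arrays and Pglym78 overlaps through hour 18 of LD, and in the lower row Cyp4d21, Obp99a, Nep6 and osy have all day arrays below all late night arrays.

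Besides the proteasome genes and cry, the probe sets with the smallest upward p-values belonged to CG10205, CG9399, CG9377, aay, CG7781, Pglym78, CG14132, speck, tmod and CAH7. For all 15 named upward, the difference was positive in both regimes, between 0.39 and 0.85, with adjusted p-values of 0.0643 to 0.266 in limma, and for 11 of the 15 the groups did not overlap. CG10205 measured 7.55 and 7.80 in DD and 7.90 and 7.98 in LD by day, against 6.97 and 6.89 in DD and 7.51 and 7.35 in LD late at night, a difference of 0.63 ± 0.09 without overlap. The gene speck, which encodes arylalkylamine N-acetyltransferase, the enzyme that inactivates dopamine and other amines, differed by 0.85 ± 0.15. It measured 7.95 and 7.76 in DD and 8.49 and 8.13 in LD by day, against 6.86 and 6.53 in DD and 7.88 and 7.64 in LD late at night, and overlapped only because hour 18 of LD lay above hour 10 of DD. The phosphoserine phosphatase gene aay, for the last step of serine synthesis, differed by 0.52 ± 0.09, with 0.53 in DD and 0.50 in LD. For tmod, whose product caps actin filaments, the difference was 0.53 ± 0.10 on the brightest probe set and 0.08 and -0.12 on the 2 others. CAH7, of the carbonic anhydrase family, differed by 0.65 ± 0.12.

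Downward, the 15 probe sets of smallest p included Cyp4d21 and 2 odorant-binding protein genes. All 15 were negative in both regimes, between -0.29 and -1.44, with adjusted p-values of 0.266 to 0.412, and for 14 of the 15 the groups did not overlap. Nep6, of the neprilysin family of membrane peptidases, measured 5.61 and 5.90 in DD and 5.30 and 5.14 in LD by day, against 6.33 and 6.09 in DD and 6.10 and 6.19 in LD late at night, a difference of -0.69 ± 0.12. The ABC transporter gene osy measured 7.87 and 7.41 in DD and 7.38 and 7.49 in LD by day, against 8.13 and 8.40 in DD and 7.94 and 8.12 in LD late at night. Its difference was -0.61 ± 0.11, and its 2 other probe sets also had negative differences, -0.68 and -0.57. Ac13E, an adenylyl cyclase that makes cyclic AMP, differed by -0.37 ± 0.07, with -0.37 in DD and -0.38 in LD. The lipid carrier apolpp, made in fat body, differed by -0.40 ± 0.09 on the named probe set and by -0.29 on a brighter one with overlapping groups. The acyl-CoA synthetase gene pdgy differed by -0.44 ± 0.10. CG17108 was among the brightest signals, with 13.14 and 12.60 in DD and 12.82 and 12.87 in LD by day, against 13.17 and 13.58 in DD and 13.36 and 13.44 in LD late at night, a difference of -0.53 ± 0.13. Muc4B (a mucin), B4, CG32086, CG5853, CG13737 and CG7506 had differences between -0.29 and -0.48. A dimmer probe set of B4 differed by -0.09, and 2 dimmer ones of Muc4B by -0.04 and -0.19. CG32086 was dim, with 2.49 to 2.69 by day and 2.88 to 3.02 late at night.

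Odorant-binding proteins carry odour molecules through the fluid around sensory neurons. Of 35 measured genes, 5 were lower and 1 higher by day at an unadjusted p under 0.05, beside 3.1% and 6.31% of all genes. Their median difference was -0.08. Obp99a measured 8.55 and 8.72 in DD and 9.02 and 8.99 in LD by day, against 9.58 and 9.44 in DD and 10.12 and 9.33 in LD late at night, so the groups did not overlap. Its difference was -0.79 ± 0.15, which is 1.73-fold higher late at night. Obp56e and Obp56d, which have consecutive probe set numbers, differed by -0.42 ± 0.09 and -0.24 ± 0.08, and Obp56g by -0.55 ± 0.20. The exception, Obp19b, differed by 0.38 ± 0.15, with 0.70 in DD and 0.05 in LD. Of 124 measured odorant, gustatory and ionotropic receptor genes, 0 were higher and 8 lower, beside 6.31% and 3.1% of all genes. For 6 of the 124 the day arrays lay wholly below the late night arrays, beside 2.12% of all genes, and the median was -0.06. The 8 differences were small, such as Ir52d at -0.25 ± 0.08, Ir56c at -0.33 ± 0.10 and the carbon dioxide receptor gene Gr21a at -0.28 ± 0.10. Ir52d was dim (2.78 to 2.86 by day, 2.93 to 3.24 late at night). Ir56c and Gr21a were brighter, with 5.69 to 6.355 and 5.89 to 6.38 over the 8 arrays.

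In photoreceptors, light-activated rhodopsin acts through a G protein and phospholipase C to open the TRP and TRPL channels. Of 20 measured phototransduction genes, 8 were higher by day and 0 lower at an unadjusted p under 0.05. Over all genes these shares were 6.31% and 3.1%. For 4 of the 20 the day arrays lay wholly above the late night arrays, beside 2.35% of all genes. The median difference was 0.18, with 0.23 in DD and 0.10 in LD. The channel gene trpl measured 10.03 and 10.17 in DD and 10.57 and 10.17 in LD by day, against 9.79 and 9.37 in DD and 9.70 and 9.65 in LD late at night. Its groups did not overlap and the difference was 0.61 ± 0.12, a fold of 1.52 (adjusted p = 0.267 in limma), with 0.52 in DD, where no light fell on either group, and 0.69 in LD. Gbeta76C, the beta subunit of the eye G protein, measured 9.41 and 9.51 in DD and 9.26 and 9.59 in LD by day, against 8.97 and 8.48 in DD and 8.96 and 8.94 in LD late at night, a difference of 0.60 ± 0.13. The eye protein kinase C gene inaC, which shuts off the response, differed by 0.52 ± 0.15, with 0.52 in DD and 0.53 in LD.

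The difference was larger in DD than in LD for 14 of the 20 genes. Ggamma30A, the gamma subunit, differed by 1.36 in DD and 0.17 in LD, trp by 0.72 and 0.15, the scaffold inaD by 1.06 and -0.02, and ninaB, which makes the retinal chromophore, by 0.94 and 0.19, each pair being DD and then LD. Members that went the other way included Calx, a sodium/calcium exchanger, with -0.03 in DD and 0.59 in LD, and laza, a lipid phosphatase, with 0.10 in DD and 0.21 in LD. The rhodopsin phosphatase gene rdgC had opposite signs, 0.81 in DD and -0.55 in LD. Arr2 differed by 0.05 ± 0.07 and the G protein alpha subunit Galphaq by -0.15 ± 0.13. Leaving out the late night arrays of DD gives the differences of LD alone. In that setting 3 of the 20 genes were higher and 1 lower at an unadjusted p under 0.05. Of all 10843 genes 249 were higher and 199 lower. The 3 photoreceptor markers averaged 10.46 to 10.63 in the day arrays and 10.07 to 10.51 in the late night arrays, and their part in these differences was not tested.

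Genes for the use of sugar were in part higher in the day group than in the late night group. Of 10 measured glycolysis genes, 5 were higher and 0 lower at an unadjusted p under 0.05, beside 6.31% and 3.1% of all genes. The list median was 0.28, with 0.24 in DD and 0.34 in LD. Pglym78, the phosphoglycerate mutase, measured 10.30 and 10.36 in DD and 10.68 and 10.81 in LD by day, against 9.90 and 9.96 in DD and 10.33 and 10.03 in LD late at night, a difference of 0.48 ± 0.09. Pgk, the phosphoglycerate kinase, measured 9.55 and 9.42 in DD and 9.47 and 9.83 in LD by day, against 8.04 and 8.13 in DD and 9.33 and 9.06 in LD late at night. Its difference was 0.93 ± 0.19, with 1.40 in DD and 0.45 in LD. Eno (enolase) differed by 0.69 ± 0.16, with 1.08 in DD and 0.31 in LD, Ald1 (aldolase) by 0.28 ± 0.08, and Gpdh1 (glycerol-3-phosphate dehydrogenase) by 0.39 ± 0.12, while the hexokinase genes Hex-A and Hex-C differed by -0.11 ± 0.10 and -0.06 ± 0.15. With the control signal added to the fit, the list median was 0.42. Averaged over the 10 genes, the log2 signal was 9.06 to 9.30 in the day arrays. At hour 14, which was in neither group, it was higher than in all of these, with 9.45 in DD and 9.38 in LD. At hour 2, also in neither group, it was 9.01 in DD and 9.29 in LD.

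Glycogen is the sugar store of fat body and muscle. Among 27 genes of sugar storage and supply, 3 were higher and 0 lower at an unadjusted p under 0.05. Shares of all genes were 6.31% and 3.1%, the list median was -0.02, and all 3 higher genes handle glycogen. AGBE, the branching enzyme, measured 7.11 and 7.11 in DD and 7.04 and 7.36 in LD by day, against 6.64 and 6.64 in DD and 6.85 and 6.85 in LD late at night, a difference of 0.41 ± 0.08 without overlap. Glyp, the phosphorylase that breaks glycogen down, differed by 0.66 ± 0.17, with 1.03 in DD and 0.28 in LD, and Glys, the synthase, by 0.26 ± 0.08. In lipid synthesis and storage (22 genes) 5 were higher and 2 lower, beside 6.31% and 3.1% of all genes, with a median of -0.00. The transcription factor gene SREBP measured 7.37 and 7.37 in DD and 7.53 and 7.62 in LD by day, against 6.67 and 6.52 in DD and 7.30 and 7.32 in LD late at night, a difference of 0.52 ± 0.11 without overlap. ACC, acetyl-CoA carboxylase for the first committed step of fatty acid synthesis, differed by 0.52 ± 0.14 on its brightest probe set and by -0.09 on the other, and ATPCL, which supplies acetyl-CoA, by 0.39 ± 0.16. The desaturase gene Desat1 went the other way at -0.47 ± 0.13, with -0.46 in DD and -0.48 in LD, and the lipase gene Lip3 differed by -0.19 ± 0.07.

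Oxidative phosphorylation genes had many small upward differences. Of 67 measured, 15 were higher and 1 lower at an unadjusted p under 0.05, beside 6.31% and 3.1% of all genes. The list median was 0.07, with 0.04 in DD and 0.12 in LD. The higher genes included subunits of complex V such as ATPsyngamma (0.62 ± 0.17) and ATPsynD (0.28 ± 0.09), of complex III such as Cyt-c1 (0.65 ± 0.19), and of complex I such as ND-42 (0.37 ± 0.12). ATPsynD measured 11.48 and 11.33 in DD and 11.26 and 11.54 in LD by day, against 11.19 and 11.07 in DD and 11.21 and 11.02 in LD late at night. For Cyt-c1 the 2 late night arrays of DD stood at 9.05 and 9.05, and the difference was 1.12 in DD and 0.18 in LD. ATPsyngamma differed by 0.95 in DD and 0.28 in LD, and ND-42 by 0.58 in DD and 0.17 in LD. Without the late night arrays of DD, where the differences are those of LD alone, 0 of the 67 genes were higher and 0 lower. This is at an unadjusted p under 0.05, where 249 of all 10843 genes were higher and 199 lower. The list median in that setting was 0.12. With the control signal in the fit, 10 were higher and 0 lower, beside 273 and 289 of all 10843 genes, and the list median was 0.18.

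Most muscle genes, 19 of the 24 measured, had positive differences, and 5 had negative ones, down to -0.13. The difference was larger in DD than in LD for 16 of the 24, and 0 passed the test of that regime difference. Heads contain muscles of the mouthparts and antennae, and flight muscle itself lies in the thorax. Of these 24 genes of the contractile apparatus, 12 were higher and 0 lower at an unadjusted p under 0.05. Over all genes the shares were 6.31% and 3.1%. Only 2 of the 24 had day arrays wholly above the late night arrays, beside 2.35% of all genes. The median was 0.32, with 0.52 in DD and 0.16 in LD. Mp20, a calponin-like muscle protein, measured 10.34 and 10.06 in DD and 10.31 and 10.21 in LD by day, against 9.69 and 9.65 in DD and 9.91 and 9.97 in LD late at night, a difference of 0.43 ± 0.09. The troponin T gene up measured 8.46 and 7.87 in DD and 8.66 and 8.59 in LD by day, against 6.57 and 6.54 in DD and 8.37 and 7.73 in LD late at night, a difference of 1.09 ± 0.24, with 1.61 in DD and 0.58 in LD. A dim second probe set of up differed by -0.00. Argk1, arginine kinase, differed by 0.39 ± 0.10, with 0.62 in DD and 0.16 in LD.

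Genes that mark indirect flight muscle were looked at one by one. TpnC4 and fln differed by -0.02 ± 0.08 and -0.12 ± 0.09, with mean signals of 2.48 and 3.29 over the 8 arrays, and Act88F differed by 0.23 ± 0.24 with overlapping groups. The mean of the 4 measured flight muscle markers was 4.70 to 5.37 in the day arrays and 4.44 to 5.28 in the late night arrays. In the fit with the control signal added, 1 of the 24 genes was higher at an unadjusted p under 0.05, beside 273 of all 10843 genes. The list median was 0.20. How much muscle each pool of heads held was not tested.

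The positive differences of chaperone genes lay mainly in DD. Of 17 measured, 6 were higher and 1 lower at an unadjusted p under 0.05, beside 6.31% and 3.1% of all genes. The median was 0.12, with 0.33 in DD and -0.03 in LD. Positive differences held for 16 of 17 in DD and 5 of 17 in LD. Droj2, a DnaJ co-chaperone, measured 9.34 and 9.36 in DD and 9.24 and 9.22 in LD by day, against 8.70 and 8.65 in DD and 9.16 and 9.15 in LD late at night. Its groups did not overlap, yet the difference of 0.38 ± 0.12 was 0.67 in DD and 0.08 in LD. Cdc37, a co-chaperone of Hsp90, differed by 0.37 ± 0.10, with 0.56 in DD and 0.19 in LD, and the small heat shock gene Hsp26 by 1.04 ± 0.35, with 7.87 at hour 10 of DD and 5.94 at hour 10 of LD. The constitutive Hsc70-4 was the member that was lower, by -0.49 ± 0.20, with -0.92 in DD and -0.06 in LD. The 2 late night arrays of DD were again those of the low 5′ minus 3′ signal, and in the fit that held it constant 0 of the 17 were higher and 2 lower. In that fit 273 of all 10843 genes were higher and 289 lower.

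Genes for pigment and amine metabolism had a median difference of 0.07 over 18 measured. At an unadjusted p under 0.05, 3 of the 18 were higher, where 6.31% of all genes were. Beside speck, these were e (ebony), whose glial enzyme couples beta-alanine to dopamine and histamine, and ple, tyrosine hydroxylase for dopamine synthesis. Ebony measured 6.15 and 6.22 in DD and 7.47 and 6.71 in LD by day, against 6.05 and 5.92 in DD and 5.89 and 5.996 in LD late at night. The groups did not overlap, and the difference of 0.67 ± 0.22 was 0.20 in DD and 1.15 in LD, a regime difference that did not pass its own test (-0.95 ± 0.30, adjusted p = 0.253). Ple differed by 0.37 ± 0.15, with 0.63 in DD and 0.11 in LD.

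Among 81 cytochrome P450 genes, 6 were higher and 7 lower at an unadjusted p under 0.05, beside 6.31% and 3.1% of all genes, with a median of -0.02, 0.07 in DD and -0.08 in LD. With the control signal in the fit, 1 was higher and 13 were lower, beside 273 higher and 289 lower of all 10843 genes. The 3 lower ones of smallest p were Cyp4d21, Cyp313a4 at -0.18 ± 0.06 and Cyp18a1, an ecdysone-inactivating enzyme, at -0.67 ± 0.24, with -1.01 in DD and -0.33 in LD. Among the higher ones Cyp305a1 differed by 0.37 ± 0.09, Cyp4g15 by 0.39 ± 0.11 and Cyp6a2 by 0.50 ± 0.14.

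**Figure D4:**
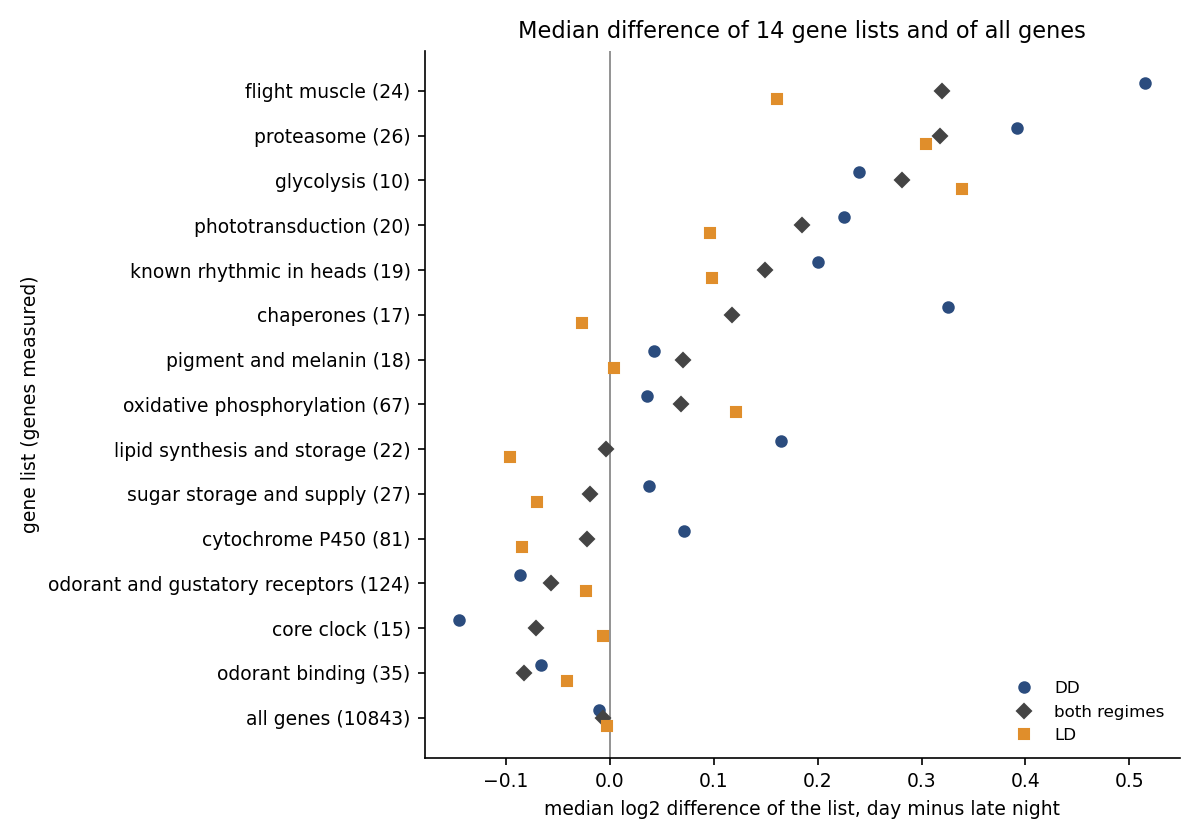
Median log2 difference of day minus late night for 14 gene lists, with the number of measured genes in brackets, and for all 10843 genes, with circles for DD, diamonds for both regimes and squares for LD. The list drawn as flight muscle holds genes of the contractile apparatus. This muscle list (0.32), the proteasome (0.32) and glycolysis (0.28) have the highest medians over both regimes. The DD and LD values lie close together for the proteasome and far apart for chaperones and the muscle list.

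Leaving out 1 array kept the count of higher genes at an unadjusted p under 0.05 between 15 and 20 for the proteasome, 6 and 8 for phototransduction and 5 and 7 for glycolysis. It was 5 to 7 for the muscle list without hour 6, 18 or 22 of DD or hour 22 of LD and 11 to 12 without any other array. It ranged from 5 (without hour 6 of DD) to 20 (without hour 6 of LD) for oxidative phosphorylation, and from 2 (without hour 10 of DD) to 9 (without hour 6 of LD) for chaperones. Without hour 10 of LD, 13 cytochrome P450 genes and 9 genes of sugar storage and supply were higher. The count of lower genes ranged from 3 (without hour 22 of DD) to 10 (without hour 10 of LD) for the chemosensory receptors and from 3 (without hour 18 of DD) to 8 (without hour 10 of LD) for odorant-binding proteins. Counts over all 13966 probe sets moved as well, and these list counts were not tested against them. Without hour 10 of LD 1347 probe sets were higher and 1101 lower, against 820 and 460 with all 8 arrays. Without hour 6 of LD 1114 were higher, and without hour 6 or 10 of DD 530 and 470. Without hour 18 or 22 of DD 264 and 314 were lower.

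The other 20 lists are given by their counts at an unadjusted p under 0.05, beside 6.31% higher and 3.1% lower of all genes. Cuticle genes (96 measured) had 6 higher, close to the 6.31% of all genes, and 0 lower. With the control signal in the fit they had 14 higher and 0 lower, where 273 and 289 of all 10843 genes were so. Cytosolic ribosomal protein genes (31 measured) had 1 higher and 0 lower, mitochondrial ribosomal protein genes (64) 4 and 2, translation factors (41) 2 and 0, glucuronosyl and glutathione transferases (67) 4 and 3, neuropeptide genes (23) 0 and 0, and antimicrobial and immune genes (28) 0 and 1. Neuronal and synaptic genes (33) had 3 higher and 2 lower, and glial genes (16) 2 higher and 1 lower. Genes of eye pigment (13) and the citrate cycle (13) each had 2 higher and 0 lower, genes of RNA binding and splicing (16) 2 and 1, activity-regulated genes (7) 1 and 0, fat body and yolk genes (9) 0 and 1, and the male (2) and female (6) marker lists 0 and 1 each. Midgut, ovary and hemocyte lists had 0, 0 and 1 higher and 0, 0 and 1 lower, and testis and accessory gland genes (28) 0 higher and 2 lower. Medians of opposite sign in the regimes were seen for many of these 20 lists. Among those lists they lay farthest apart for RNA binding and splicing (-0.51 in DD and 0.25 in LD) and the citrate cycle (0.41 in DD and -0.11 in LD).

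Whether the difference between day and late night itself differed between the regimes was tested as an interaction in the same 8 arrays, as 4 cells of 2 arrays. In limma 45 probe sets passed an adjusted p of 0.05. In 37 the difference was higher in DD than in LD (0.265%), and in 8 it was lower in DD (0.0573%). For 43 of the 45 the size of the difference was larger in DD than in LD, and for 40 of the 45 the regimes had opposite signs. Of the 45, 43 were also among the 1065 probe sets that passed between day and late night in DD alone, where in LD alone 0 passed.

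The largest such difference was that of eEF1alpha2, a translation elongation factor. It measured 9.05 and 8.89 in DD and 7.99 and 8.97 in LD by day, against 6.66 and 6.46 in DD and 8.96 and 8.93 in LD late at night. The DD minus LD difference was 2.88 ± 0.38 (adjusted p = 0.0472), made of 2.41 in DD and -0.47 in LD. The gene lost measured 7.82 and 7.88 in DD and 7.12 and 7.33 in LD by day, against 6.15 and 6.30 in DD and 7.62 and 7.66 in LD late at night (2.04 ± 0.15, adjusted p = 0.0124). A dimmer probe set of lost gave 0.78 (adjusted p = 0.179 in limma). Unc-76, an adaptor of kinesin, differed between regimes by 1.97 ± 0.17, but its brighter probe set by 0.65 (adjusted p = 0.155). Pgm1, phosphoglucomutase at the entry to glycogen synthesis, differed by 1.43 ± 0.15, and Tret1-1, a trehalose transporter, by 1.70 ± 0.20. Sms (spermine synthase) differed by 1.55 ± 0.20, P5CDh1, of proline breakdown, by 1.38 ± 0.19, and CG4364, CG5758 and CG1354 by 1.82, 1.49 and 1.34.

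In the other direction, CNBP, a zinc finger protein that binds RNA, measured 9.11 and 9.21 in DD and 9.36 and 9.57 in LD by day, against 10.40 and 10.51 in DD and 8.96 and 8.998 in LD late at night. Its DD minus LD difference was -1.78 ± 0.15 (adjusted p = 0.0124), while 2 other probe sets of the gene gave -0.43 and 0.24. The RNA export factor gene Ref1 gave -1.81 ± 0.26 and Tomosyn, an inhibitor of synaptic vesicle release, -1.55 ± 0.23, with -0.14 to -0.94 on 4 other probe sets of Tomosyn. The genes ckn, Hasp and mira gave -1.34, -1.19 and -0.83. A brighter probe set of ckn gave -0.23, and dimmer ones of Hasp and mira gave -0.39 and -0.29, none of which passed.

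Of the 8 probe sets with a lower difference in DD, 2 had the larger difference in LD. CG17298 measured 7.60 and 7.62 in DD and 9.52 and 10.07 in LD by day, against 7.44 and 7.41 in DD and 7.94 and 7.54 in LD late at night. Its 2 highest values of the 8 were those of the LD day arrays. The difference was 0.19 in DD and 2.05 in LD (interaction -1.87 ± 0.27, adjusted p = 0.0491). The gene retinin, a protein of the corneal lens, measured 10.78 and 10.98 in DD and 11.60 and 11.71 in LD by day, against 11.41 and 11.19 in DD and 10.73 and 10.53 in LD late at night, with -0.42 in DD and 1.02 in LD.

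The arrays with the low control signal were also the extreme ones for many of these probe sets. Over all 12 arrays the 4 lowest 5′ minus 3′ values were those of hours 14, 18 and 22 of DD and hour 2 of LD (-1.89, -2.51, -2.45 and -2.02). Of the 37 probe sets with a higher difference in DD, 22 (59.5%) had their 4 lowest values of the 12 in exactly these arrays, and of the 8 with a lower difference 6 (75%) had their 4 highest there. Over all 13966 probe sets these shares were 4.58% and 3.16%. Hours 18 and 22 of DD are also among the arrays from which the calls were made. The shares of called probe sets are therefore in part fixed by the selection. Only hour 14 of DD and hour 2 of LD lay outside that fit. In the fit with the control signal added, 0 of the 45 passed, while 686 and 780 probe sets of all had an unadjusted p under 0.05 upward and downward, and the median standard error was 0.517 with it and 0.166 without it. Leaving out 1 array gave 0 calls without hour 6, 10, 18 or 22 of DD or hour 18 or 22 of LD, but 801 without hour 6 and 534 without hour 10 of LD. The regime and this signal cannot be told apart at late night, where both DD arrays were low and both LD arrays were not.

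**Figure D5:**
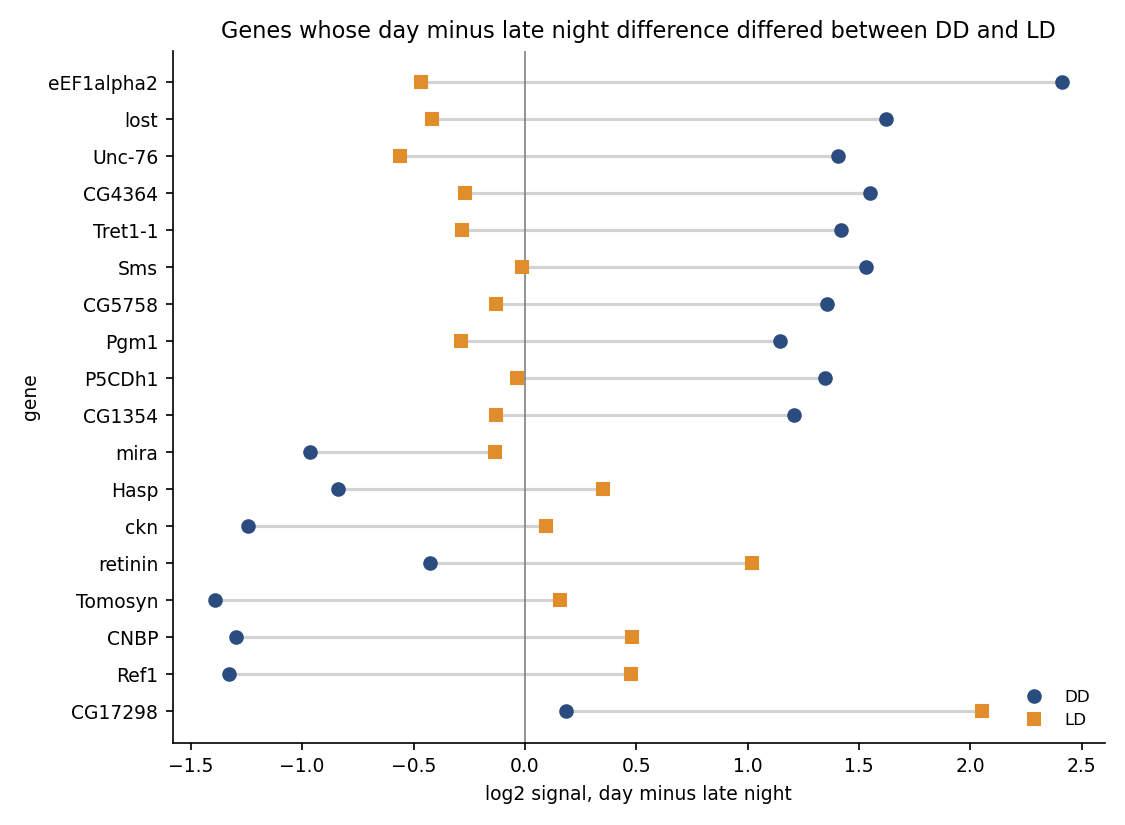
Log2 difference of day minus late night within DD (circles) and within LD (squares) for 18 genes whose difference was not the same in both regimes by limma's interaction test. Each gene is shown by the probe set that passed. The DD circle is the farther from 0 for every gene except retinin and CG17298, and the upper 10 genes have DD differences of 1.14 to 2.41.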

How the data were processed

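The authors deposited log2 signal values made with RMA, per the submitters' processing notes. Its version, and whether the 12 arrays were normalized together, are not given in the sources used here. From these log2 values limma 3.58.1 in R 4.3.3 (lmFit and eBayes) fitted group and regime to the 8 arrays (5 residual degrees of freedom), with Benjamini-Hochberg adjustment over 13966 probe sets at 0.05. A second fit of 4 cells tested the difference between regimes, and a two-sided exact permutation test compared the control signals. Gene symbols came from the platform annotation, with 12443 probe sets carrying 1 symbol, 327 several and 1196 none, and only the first kind is named, and the values of 1 probe set without a symbol are given, chosen after they were seen. Each gene is represented in the lists by its brightest probe set. The comparison and the 34 gene lists were chosen with earlier results of these data known.

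Named were the 15 probe sets of smallest p in each direction, since none was called, every probe set of the measured core clock genes, up to 3 members per direction of smallest p from other lists, and up to 10 called probe sets per direction for the regime difference. Of the lists, 14 are described one by one, those with at least 3 members in 1 direction at an unadjusted p under 0.05 and a share of 1.5 times that of all genes or more, a rule chosen after seeing the data. Values are given for further members of these lists as examples chosen after their values were seen. The fits were tested on simulated data with 200 changed probe sets and noise that was independent between arrays and probe sets. For the regime difference they recovered 43.5% of differences of 1 and 88% of differences of 2. Alternatives dropped the regime term, used 1 regime, added the control signal as a covariate, kept the brighter part of the probe sets, normalized or centred the arrays again, changed the variance prior, used all 12 arrays, took 1 probe set per gene or left out arrays.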

Additional observations from a re-analysis of the deposited data

Results flagged for a closer look

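Single arrays lay far from the other 3 of their group in 12 cases, as chance alone would do in about 1 of 20 groups tested. Many groups were tested, and the 12 cases were not set against the number that chance would give. Among genes these were Pdfr at 5.69 in hour 10 of LD (day), eEF1alpha2 at 7.99 in hour 6 of LD (day), cry at 7.94 and per at 6.06 in hour 22 of LD, Clk at 3.88 in hour 18 of LD, and Gbeta76C at 8.48 in hour 22 of DD. Among list means of log2 signal, the day arrays so marked were hour 6 of DD for the proteasome (7.40), hour 10 of DD for the muscle list (8.06) and ovary (5.91), and hour 10 of LD for cytochrome P450 (5.35). The late night ones were hour 18 of DD for cytosolic ribosomal proteins (10.44) and hour 22 of DD for hemocytes (5.71).

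The difference of day minus late night was not the same in DD and LD, by limma's interaction test, for 18 named genes. DD exceeded LD by 2.88 for eEF1alpha2, 2.04 for lost, 1.97 for Unc-76, 1.82 for CG4364, 1.70 for Tret1-1, 1.55 for Sms, 1.49 for CG5758, 1.43 for Pgm1, 1.38 for P5CDh1 and 1.34 for CG1354. DD minus LD was -1.87 for CG17298, -1.81 for Ref1, -1.78 for CNBP, -1.55 for Tomosyn, -1.44 for retinin, -1.34 for ckn, -1.19 for Hasp and -0.83 for mira. Each value is that of the probe set that passed. Other probe sets of lost, Unc-76, Tret1-1, CNBP, Tomosyn, ckn, Hasp and mira did not pass. The 5′ minus 3′ control signal was lowest in the 2 late night arrays of DD, and its part in these values was not tested apart from the covariate fit given above, in which none passed.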

How the results depend on the processing

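No probe set passed between day and late night (0) in the fits without the regime term, of LD alone, of the brighter probe sets, of arrays normalized or centred again, with a trended prior or with 1 probe set per gene. DD alone gave 1065 (750 higher, 315 lower), the control signal as covariate 3 (CG17298, CG11413 and CG12998), all 12 arrays 1 (Rpt4), and leaving out 1 array 0 to 48. Leaving out both late night arrays of DD, chosen after seeing the data, gave 1 (Cyp4d21). The differences in that setting are those of LD alone, where 0 passed. The 820 higher probe sets at an unadjusted p under 0.05 became 240 in LD alone, 1758 in DD alone, 346 with the covariate, 308 without late night of DD and 470 to 1347 without 1 array. The 460 lower ones became 148 in LD alone, 1348 in DD alone, 183 among brighter probe sets, 242 without late night of DD and 184 to 1101 without 1 array. The 45 calls of the regime difference became 0 with the covariate, 12 after normalizing again, 29 with a trended prior and 0 to 801 without 1 array. For the core clock, where no difference passed, some signs turned. In LD alone, and equally without late night of DD, values were 0.11 for Clk, 0.052 for Pdfr, -0.007 for cwo, 0.20 for dco, -0.0375 for jet, -0.034 for slmb, -0.12 for the dimmer tws and 0.095 for wdb. With the covariate they were 0.016 for Clk, 0.078 for Pdfr, 0.17 for dco, -0.013 for jet, -0.0095 for slmb, -0.15 for the dimmer tws and 0.066 for wdb. In DD alone the third tim probe set gave 0.20. Without 1 array values ran over 0, with -0.31 to 0.10 for Clk, -0.13 to 0.020 for Pdfr, -0.031 to 0.039 for cwo, -0.014 to 0.10 for jet, -0.25 to 0.22 for the third tim probe set, -0.21 to 0.016 for the brighter tws and -0.11 to 0.31 for vri. With the covariate the regime difference of CG17298 was 0.071 and of Tomosyn 0.029. The cause of these changes was not tested. No paired analysis was possible because the labels give no replicate numbers shared by the groups. Each time point had 1 array, so the number of arrays limits precision.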

Other observations

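CG11413 and CG12998, which passed only with the control signal as a covariate, were high in the LD day arrays. CG11413 measured 6.53 and 6.38 in DD and 8.48 and 8.59 in LD by day, against 6.35 and 6.21 in DD and 7.19 and 6.52 in LD late at night. CG12998 measured 4.51 and 4.51 in DD and 6.15 and 6.85 in LD by day, against 4.09 and 4.52 in DD and 4.88 and 4.56 in LD late at night. In the fit without the covariate the differences were 0.93 ± 0.29 and 0.99 ± 0.31 (adjusted p = 0.481 and 0.487 in limma). The polyubiquitin gene Ubi-p63E, which supplies free ubiquitin, differed by 1.37 in DD and -1.17 in LD. It was not among the 45 probe sets that passed the test of the regime difference. The part of the low 5′ minus 3′ signal in the late night arrays of DD was not tested for it.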
